A study of Mus musculus with 6 samples.

Results

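The defensin gene cluster of mouse chromosome 8 was described here through the array probes that lie in it. Members were all probes, other than controls, whose start lay between 19000000 and 23000000 on chromosome 8 of genome build mm9, the build of the array design. The window held 377 of the 174638 probes on each array, and none of them was among the 360 probes left out for a spot flag. A region was a run of at least 3 probes with starts at most 1000 bp apart. The window held 52 of the 21987 regions of the array, with 374 of its probes. The 3 remaining probes lay in 2 shorter runs and entered only the probe fits.

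DNA methylation had been measured in liver from mouse offspring aged 32 weeks, with 3 arrays from dams on a chromium restriction diet and 3 from dams on a control diet. Chromium is a trace element, and the comparison asks whether the mother's diet left a difference in the methylation of the offspring's liver DNA. The tissue label gives liver while the extraction label names fat, and no tissue marker was checked, since genes could not be placed on the probes. Strain and litter are not given in the sources used here, so the spread behind each p-value is that among these arrays and may be technical. In the assay, methylated DNA immunoprecipitation, an antibody to methylated cytosine pulls down DNA fragments. Immunoprecipitated DNA carried the red dye and input DNA the green dye on the same array. The level of a probe is the log2 ratio of immunoprecipitated over input signal, centred on the array's median, and the level of a region is the mean over its probes. Levels are means over the 6 arrays unless an array is named.

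Defensins are small cysteine-rich peptides that kill microbes by disrupting their membranes. In the mouse, alpha-defensins are secreted mainly by Paneth cells of the small intestine, and beta-defensins by epithelia, many of them in the epididymis. The genes arose by repeated local duplication and lie in tandem. In mammalian DNA, methylation falls mostly on cytosines followed by guanine (CG), so the antibody pulls down mainly fragments where such sites are present and methylated.

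The RefSeq table, on the later build GRCm38.p6, was used for gene names and their order only. From Defb40 to Defb13 it lists 124 genes, of which 40 are alpha-defensin genes or pseudogenes (29 coding), 26 are beta-defensin genes with Spag11a and Spag11b, and 58 are others, among them 34 pseudogenes. A first group holds beta-defensin genes and the alpha-defensin pseudogenes Defa-ps12 to Defa-ps15. It is followed by a stretch of mostly pseudogenes with a few coding and noncoding genes, then by Defb33 and the alpha-defensin genes, and then by a second group of beta-defensins. Among the 58 others, 3 carry a defensin name as a synonym. No gene was assigned to a region, since the builds differ.

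The promoter sequences held for some of these genes had few CG sites. RefSeq promoters of 300 bases (250 before the start and 50 after it) were held for 16 alpha-defensin and 14 beta-defensin genes, matched by symbol. CG, which reads the same on both strands, was counted in each. The median promoter of either family held 1 CG, against 7 over all 32851 promoters. Other genes between Defb40 and Defb13 were also poor in CG. Their 13 promoters had a median of 2, with at most 1 CG in 5 of them (38.5%). At most 1 CG was found in 15 of 16 alpha-defensin promoters (93.8%) and in 9 of 14 beta-defensin promoters (64.3%), against 14.1% of all promoters. The promoters printed here run from 250 bases before the start up to it, on the gene's strand, with CG in capitals, and show the richest and a typical member of each family. Defa30 had the most CG among the alpha-defensins, 3 in 300 bases, with 2 of them in the part shown. Defa2 shows the usual single CG. Defb13 had 6, as did Defb15, and 5 are in the part shown. Defb38 had 1.
Defa30: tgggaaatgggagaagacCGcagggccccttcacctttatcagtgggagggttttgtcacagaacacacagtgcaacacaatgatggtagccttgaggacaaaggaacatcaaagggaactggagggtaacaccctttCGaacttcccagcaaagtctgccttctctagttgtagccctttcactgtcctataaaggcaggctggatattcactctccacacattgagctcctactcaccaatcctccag
Defa2: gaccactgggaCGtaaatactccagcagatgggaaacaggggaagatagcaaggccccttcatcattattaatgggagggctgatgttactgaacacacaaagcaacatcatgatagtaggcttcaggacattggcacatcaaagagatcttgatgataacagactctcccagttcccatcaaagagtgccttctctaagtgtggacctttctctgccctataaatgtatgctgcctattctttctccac
Defb13: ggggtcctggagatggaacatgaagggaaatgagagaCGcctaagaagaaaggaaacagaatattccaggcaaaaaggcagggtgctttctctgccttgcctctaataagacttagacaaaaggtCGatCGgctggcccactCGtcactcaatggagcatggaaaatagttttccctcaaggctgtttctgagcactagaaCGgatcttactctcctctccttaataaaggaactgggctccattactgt
Defb38: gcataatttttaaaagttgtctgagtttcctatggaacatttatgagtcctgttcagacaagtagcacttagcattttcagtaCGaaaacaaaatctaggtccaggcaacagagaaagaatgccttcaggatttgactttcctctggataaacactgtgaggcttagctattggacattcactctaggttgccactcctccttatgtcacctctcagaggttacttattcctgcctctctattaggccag
Some alpha-defensin promoters were near copies of each other. Set side by side without gaps, the 120 pairs had a median identity of 27.7%, against 26% for the 91 beta-defensin pairs. An offset between 2 promoters lowers this measure, so a low identity does not show that 2 promoters are unrelated. Of the 120 pairs, 13 were at least 90% identical, and Defa2 with Defa20, Defa21 with Defa22, Defa23 with Defa31, Defa36 with Defa37, and Defa42 with Defa43 were 100% identical. A run of 45 bases, the length of the shortest probe, was shared with another gene's promoter in 15 of 16 alpha-defensin promoters and in 7 of 14 beta-defensin promoters (50%), against 18.8% of all promoters. The beta-defensin pairs reached at most 51% identity in the comparison without gaps, which an offset can lower.

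The window was chosen by position after its low log2 ratios had been seen in these arrays, so levels are given as a description and were not tested. The 52 regions had a median level of -0.94 (quartiles -1.85 and -0.49), against -0.11 for the other 21935 regions. A level below -1 was found in 25 of the 52 (48.1%), against 6.21% of the others, and a level below -2 in 11 (21.2%), against 1.52%. None of the other 965 regions of chromosome 8 was below -2. The 68 regions within 4 Mb to either side of the window had a median of -0.047.

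The members lay in 3 separate blocks, divided at gaps over 250 kb that were chosen after the positions were seen. Regions are numbered 1 to 52 along the chromosome. Block 1 held regions 1 to 14 (chr8:19026030-19448762), block 2 held regions 15 to 18 (chr8:19728349-20021575) and block 3 held regions 19 to 52 (chr8:22041176-22995917). No region lay in the 2019601 bp between blocks 2 and 3. The blocks had median levels of -0.57, -2.53 and -1.24.

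**Figure D1:**
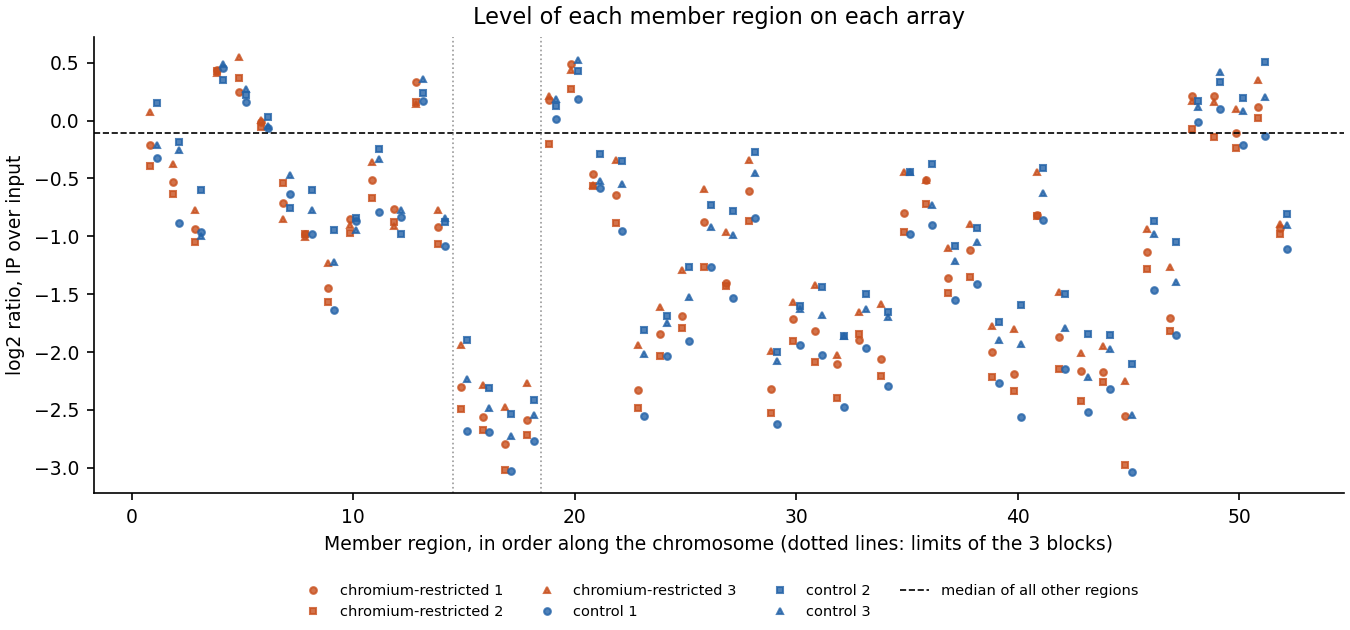
Level of each of the 52 member regions (y axis, log2 ratio of immunoprecipitated over input signal) in order along the chromosome (x axis), with 1 point per array, orange for the 3 chromium-restricted and blue for the 3 control arrays. The 4 regions of block 2 are low on every array, and block 3 has regions near or above the dashed median of all other regions only toward its 2 ends.

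Along the cluster, the longest run of regions on 1 side of the median of the other regions lay below it. Regions 21 to 47 formed an unbroken run of 27 regions over 761 kb in which every level was below the median of the other regions, from -2.58 to -0.50 with a median of -1.73. Neighbours within the run still differed, as in regions 40, 41 and 42, at -2.07, -0.66 and -1.82. On its left the run met regions 19 and 20, at 0.08 and 0.39. On its right it met regions 48 to 51, which lay between -0.03 and 0.18. In block 1, regions 4, 5 and 6 stood above the median of the other regions, at 0.43, 0.30 and -0.03, and region 13 at 0.23. The remaining 10 regions of block 1 lay below it.

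The edges of the window were also read. Region 1 (chr8:19026030-19027812) had a level of -0.15, and the nearest region outside it on the left had 0.56. Region 52 (chr8:22995468-22995917), with 3 probes, had -0.94, and the nearest region on the right had -0.75. The next region beyond had -0.05 on the left and -0.11 on the right.

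The 6 highest regions were 4, 20, 5, 13, 49 and 51. Region 4 (chr8:19122463-19123934) read 0.44, 0.43 and 0.41 on the 3 chromium-restricted arrays in order of number, and 0.45, 0.35 and 0.48 on the 3 control arrays. The 6 arrays lay within a narrow band, and both channels of its 6 probes exceeded the scanner software's background limit on every array (the limit meant by well above background throughout). Region 20 (chr8:22061251-22062974) had a level of 0.39, but only 4 of its 9 probes passed that limit in both channels of every array. Regions 5 (chr8:19139508-19140958) and 13 (chr8:19299417-19301114) had 0.30 and 0.23. Regions 49 (chr8:22932711-22934425) and 51 (chr8:22968077-22969813) both had 0.18.

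The 6 lowest regions were 17, 45, 18, 16, 15 and 29, and they included all of block 2. Region 17 (chr8:19958330-19959818) read -2.80, -3.02 and -2.48 on the chromium-restricted arrays, and -3.02, -2.53 and -2.73 on the controls. The ranges of the 2 groups overlapped. Regions 18 (chr8:20019792-20021575), 16 (chr8:19892513-19894307) and 15 (chr8:19728349-19729842) had levels of -2.55, -2.50 and -2.26. Region 45 (chr8:22804834-22805854) had -2.58, and 1 of its 5 probes passed the background limit in both channels of every array. Region 29 (chr8:22330350-22331697) had -2.26.

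The low levels arose in different channels in blocks 2 and 3. Channel signals are given as log2 relative to the array's median signal of that channel. In block 2 the input was bright, with a median of 2.80 (6.96-fold the array median, range 2.22 to 3.17), and the immunoprecipitated signal was near the array median, at 0.087. In block 3 the input was ordinary, at 0.11 (1.08-fold), and the immunoprecipitated signal was low, at -1.28 (0.411-fold). Block 1 had -0.21 and -1.06. An input above 2 was found in 4 member regions, all in block 2, and in 2.84% of the other regions. An input within 1 of the array median together with an immunoprecipitated signal below -1 was found in 25 of the 52 members (48.1%), against 9.66% of the others.

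**Figure D2:**
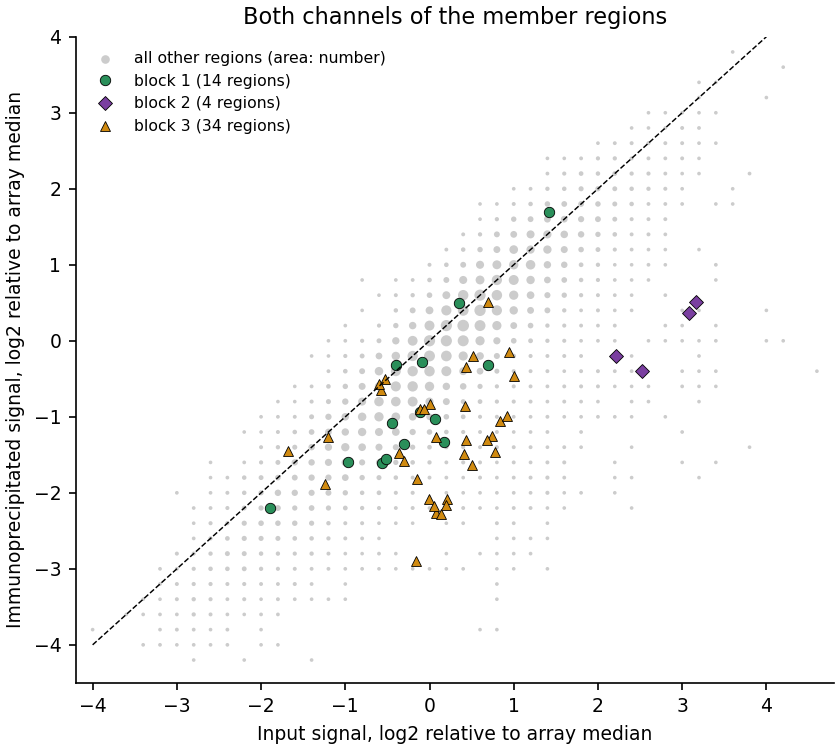
Input signal (x axis) and immunoprecipitated signal (y axis) of each region, both as log2 relative to the array median and averaged over the 6 arrays; grey dots are the other 21935 regions in bins of 0.2, with area showing their number, and the dashed line marks equal values. The 4 regions of block 2 (purple) lie far to the right, between 2.22 and 3.17, while most regions of block 3 (orange) lie below the line at an ordinary input.

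Of other windows of the array with low levels, only 2 were read, and both had a brighter input than block 3. The 112 regions of chromosome 7 between 20 and 24 Mb had a median level of -2.37 with an input of 1.07 and an immunoprecipitated signal of -1.63. The 22 regions of chromosome 4 between 60 and 62 Mb had -2.47, 1.54 and -0.94. Both inputs lay between those of blocks 2 and 3. These are medians of regions and were not tested.

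Dim spots bound many of the low values. The immunoprecipitated signal was not well above background on any of the 6 arrays for 117 of the 377 probes (31.0%), against 20.9% of the probes elsewhere. On every array both channels passed the limit for 239 probes (63.4%), against 67.5%. A level below -2 was found in 98 probes (26.0%), against 8.56%, and one above 1 in 36 (9.55%), against 16.8%. With only the 239 bright probes kept, the median level over member regions moved from -0.94 to -0.39 and the mean from -1.10 to -0.47. The median over all regions of the array moved from -0.11 to 0.17. This filter drops probes with a dim immunoprecipitated signal, so by its design it removes low ratios.

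Probes within a region spread widely. The SD over the probes of a region had a median of 1.32 in the cluster and 1.12 elsewhere. The 3 lowest probes all lay in block 2. A probe in region 17 (chr8:19959558-19959615) had a level of -6.47, with an immunoprecipitated signal not well above background on any array, so its level has only a bound. Probes in regions 16 (chr8:19893597-19893645) and 18 (chr8:20020865-20020913) had -6.06 and -5.82 with both channels well above background, and their input stood at 4.53 and 4.51. The 3 highest probes lay in regions 49, 51 and 1, at 2.19, 2.08 and 2.02. The input of the region 1 probe was not well above background on 3 arrays.

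Some pairs of distant regions in block 3 carried the same or nearly the same probe layout, and 2 pairs had identical spacing and close profiles. Layout was compared among the 50 member regions with at least 5 probes, as the spacing of successive probe starts. The spacing was identical in 4 of the 50 (8%) with another region of the window, against 0.748% of 21526 other regions with any region of the array. Regions 23 (chr8:22193817-22195164) and 29 lie 136533 bp apart, with 7 probes of the same lengths. Their probes read -2.35, -3.61, -1.82, -1.50, -1.85, -1.03 and -3.18 in region 23, in order along the chromosome. The corresponding probes of region 29 read -2.54, -3.84, -1.82, -1.47, -1.85, -1.15 and -3.12. The values followed each other probe by probe, with a median difference of 0.057 in size and r = 0.99 over 7 probes, although the first, second and last probe of both regions were not well above background in the immunoprecipitated channel on any array. Regions 36 (chr8:22566652-22568258) and 41 (chr8:22704600-22706206) lie 137948 bp apart, with 8 probes. Their probes differed by a median of 0.092 (r = 0.99) and their levels were -0.63 and -0.66.

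Within 5 bp, 16 of the 50 regions (32%) matched a region somewhere on the array, against 7.87% of the other regions, and 10 of the 16 had a match inside the window. At 10 bp, a looser tolerance added after the data were seen, the shares matched on the array were 70% and 38.8%, and 16 member regions had a match inside the window. At the 5 bp tolerance, the 5 pairs inside the window had r from 0.89 to 0.998 over their 5 to 8 probes. At the same tolerance, the 12 pairs of a member with a region elsewhere had r from -0.78 to 0.63. These correlations are across probes, which are not independent replicates. Not every pair had equal levels: region 43 (chr8:22765327-22766677) had -2.20 and region 47 (chr8:22844070-22845413) had -1.51. Of their 7 probes, the first differed by -0.22 (region 47 minus region 43) and the others by 0.34 to 1.05. In 4 places a region of 7 probes was followed, 9600 to 9645 bp on, by one of 8 probes. These were regions 23 and 24, 29 and 30, 32 and 33, and 43 and 44. The first had levels of -2.19, -2.26, -2.12 and -2.20, and the second -1.83, -1.73, -1.75 and -2.09.

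**Figure D3:**
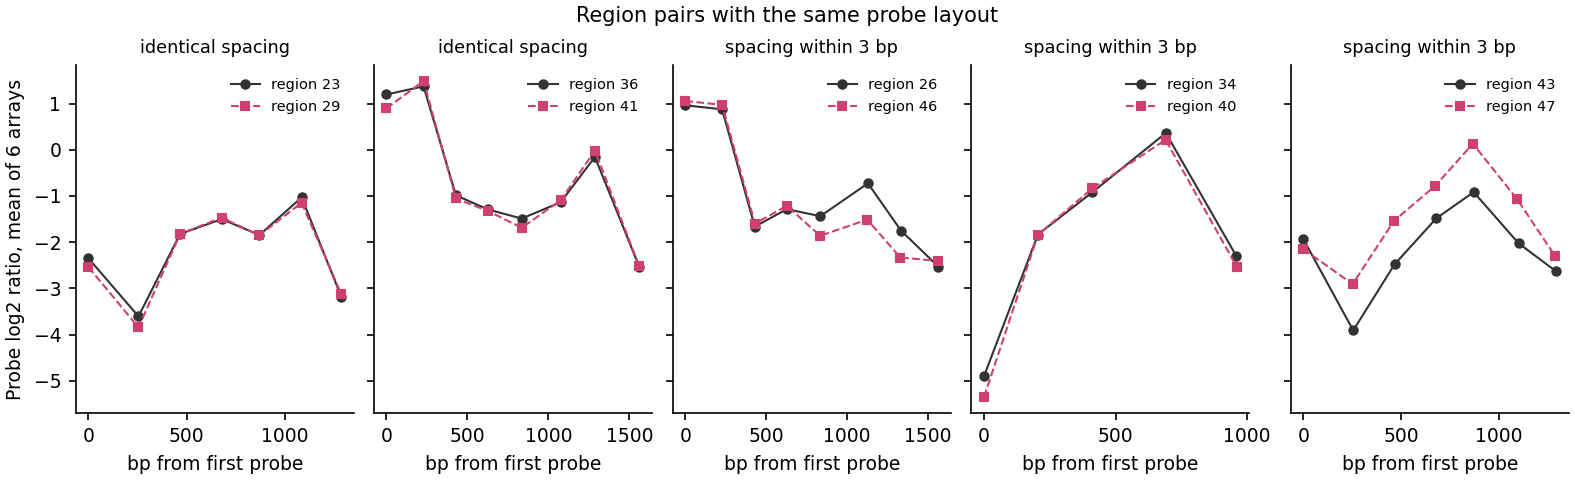
Probe levels (y axis, mean log2 ratio of 6 arrays) against distance from the first probe (x axis, bp) for the 5 pairs of member regions whose probe spacing matched within 5 bp; each line is 1 region. The lines nearly coincide in the pairs of regions 23 and 29 and of regions 36 and 41, and lie furthest apart in the pair of regions 43 and 47, by up to 1.05 at a probe.

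The maternal diet groups were compared next. No member region and no member probe passed an adjusted p of 0.05 (limma, Benjamini-Hochberg over all regions or all probes), nor did any of the 21987 regions or 174278 probes of the array (0%). At an unadjusted p under 0.05 the counts were 0 of 52 regions, against 0.891% of all regions, and 3 of 377 probes, against 1.3% of all probes. Over the 52 regions the difference, chromium-restricted minus control, ranged from -0.21 to 0.17 with a median of -0.035, against 0.0042 over all regions. It was below 0 in 40 of the 52, against 47.4% of all regions. The mean over all member regions was -1.13 ± 0.17 (SD, n = 3) in the chromium-restricted and -1.08 ± 0.23 (SD, n = 3) in the control arrays, a gap smaller than either SD.

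The direction of that median rested on single arrays. Without chromium-restricted array 2 it was 0.047, and without control array 2 it was 0.054. Without control array 1 it was -0.18. In that fit 6 of the 52 member regions (11.5%) had an unadjusted p under 0.05, against 2.54% of all regions, and 14 of the 377 probes (3.71%), against 2.38% of all probes. In 7 member regions (13.5%) the groups did not overlap, against 14.6% of all regions. Without chromium-restricted array 3 it was -0.14, without control array 3 it was -0.0059, and without chromium-restricted array 1 it was -0.029.

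**Figure D4:**
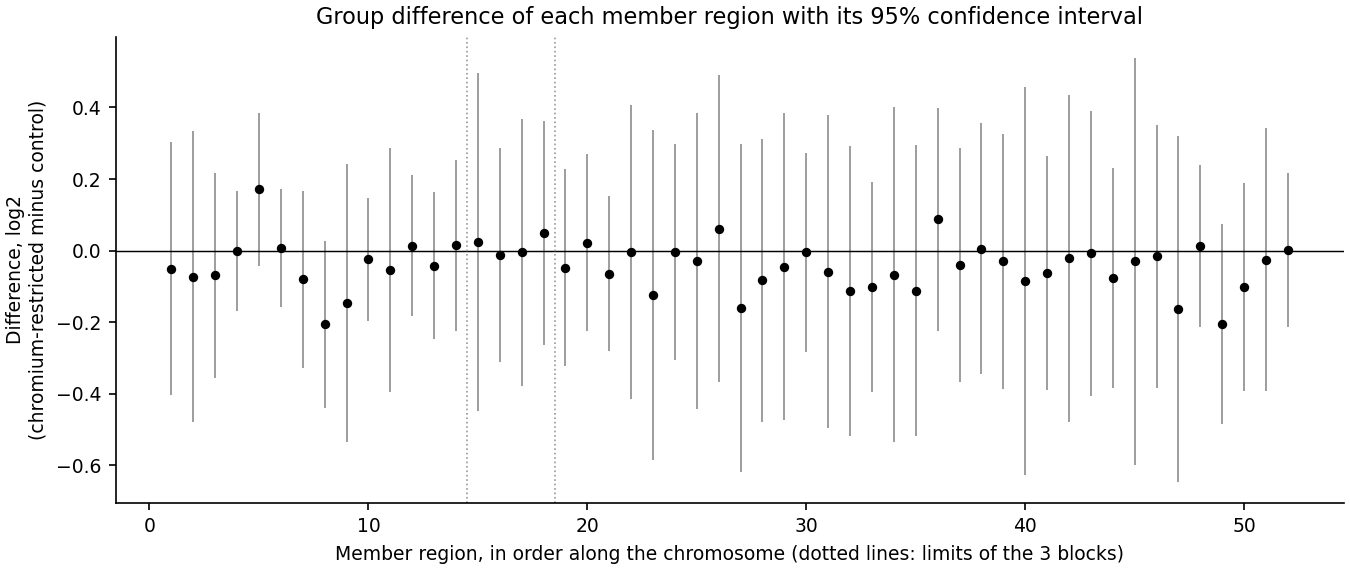
Difference between groups for each member region (y axis, log2, chromium-restricted minus control), in order along the chromosome (x axis), with the 95% confidence interval of the limma fit as bars. All 52 intervals include 0, and differences range from -0.21 to 0.17.

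The groups did not overlap in 1 of the 52 regions, against 4.43% of all regions. That region was lower in the chromium-restricted arrays; 1.93% of all regions were lower without overlap. In region 8 (chr8:19197404-19198682) the chromium-restricted arrays 1, 2 and 3 read -0.983, -0.984 and -1.01, and the control arrays -0.983, -0.604 and -0.771. The separation is bare, since the highest chromium-restricted and the lowest control array agree to 3 digits. The means were -0.99 ± 0.015 and -0.79 ± 0.19 (SD, n = 3 each). The difference was -0.21 (95% interval -0.44 to 0.028, limma unadjusted p = 0.077, adjusted p = 1.0).

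The other regions with the smallest p were further from the threshold. On the lower side these were region 49 (-0.21, limma unadjusted p = 0.13), region 9 (chr8:19224370-19225401, -0.15), region 27 (chr8:22273412-22274746, -0.16) and region 50 (chr8:22949495-22950753, -0.10). On the higher side, region 5 had 0.17 (95% interval -0.042 to 0.38, limma unadjusted p = 0.10). It was followed by region 36 (0.088), region 18 (0.049), region 26 (chr8:22235393-22237002, 0.061) and region 20 (0.022). The intervals of region 27, from -0.62 to 0.30, and of region 26, from -0.37 to 0.49, show how wide a difference these arrays leave possible.

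Of the 3 probes, that in region 49 (chr8:22934381-22934425) read 0.72, 0.70 and 0.65 on the chromium-restricted and 1.15, 1.22 and 1.17 on the control arrays. The groups did not overlap there, as in 4.27% of all probes, and the difference was -0.49 (SE 0.13, limma unadjusted p = 0.0078, adjusted p = 1.0). Its input was not well above background on 2 arrays. Probes in region 13 (chr8:19300034-19300085) and region 8 (chr8:19197404-19197463) differed by -0.63 and -0.59, and their inputs were not well above background on 3 and 4 arrays.

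Array brightness moved with the level of the cluster. The member mean was -1.14, -1.29 and -0.95 on the chromium-restricted arrays in order of number, and -1.34, -0.89 and -1.02 on the controls. The median input signal of the same arrays was 53.1, 83.9 and 46.1, and 98.4, 38.1 and 60.5 scanner units. The 2 brightest arrays, 1 of each group, had the lowest means, and the 2 dimmest had the highest. Both brightest arrays lay below both dimmest in 45 of the 52 member regions (86.5%), against 44.2% of the other regions. The SD over the 6 arrays had a median of 0.21 in the cluster and 0.11 elsewhere. In the 2 other windows with low levels, on chromosomes 7 and 4, this median was higher still, at 0.32 and 0.27. Within the cluster the SD was largest in regions 45 (0.38), 40 (chr8:22692849-22693869, 0.36) and 47 (0.33). With the input signal as a covariate, the median difference was -0.054, and an unadjusted p under 0.05 was found in 3 member regions (5.77%), against 3.85% of all regions, and in 13 member probes (3.45%), against 3.91% of all probes. None passed after adjustment. The part of brightness in the levels was otherwise not tested.

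**Figure D5:**
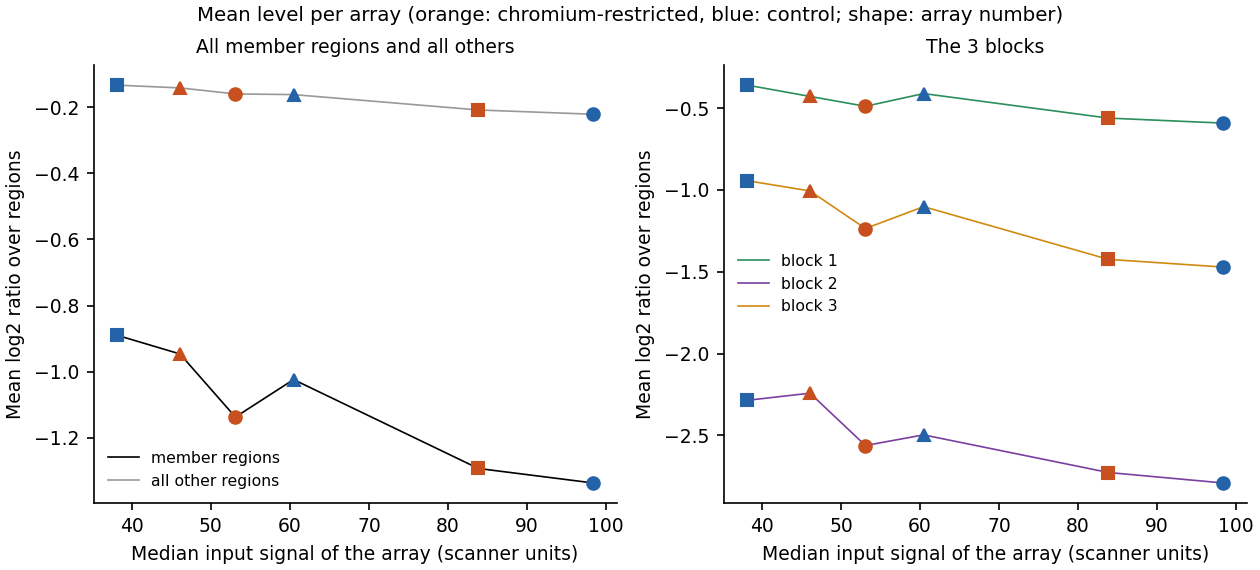
Mean level over regions on each array (y axis, log2 ratio) against the array's median input signal (x axis, scanner units), for all members and all other regions on the left and for the 3 blocks on the right; orange marks chromium-restricted and blue control arrays, and the shape marks the array number. The 2 arrays with the brightest input, at 83.9 and 98.4, have the lowest mean of every set of regions shown.

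Arrays with the same number were scanned together, 1 of each group, so the comparison was also made within scans. The mean difference over members was 0.20, -0.40 and 0.077 in scans 1, 2 and 3, and the chromium-restricted array was lower in 3, 48 and 14 of the 52 regions (5.77%, 92.3% and 26.9%). Among the other regions it was lower in 35.2%, 60.9% and 45.5%, and their mean difference was 0.061, -0.075 and 0.020. In block 3 it was lower in 0, 34 and 6 of 34 regions. The chromium-restricted array was the dimmer one in scans 1 and 3 and the brighter one in scan 2. With the scan as a block, no member region had an unadjusted p under 0.05. The chromium-restricted DNA was always at position 2 of the slide and the control DNA at position 4, so position and diet cannot be told apart.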

How the data were processed

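Per the labels, immunoprecipitated DNA carried Cy5 and input DNA Cy3 on all 6 two-colour arrays, with no dye swap. Per the file headers, spots were read with Feature Extraction 11.0.1.1, and the deposited processed signals are intensity values with local background subtracted and a linear dye factor per channel. The authors' deposited table holds log ratios taken as log2; its log base, centring and method are not given in the sources used here, and it served as an alternative. The other deposited log10 ratio and p-value columns were not used.

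Here log2 ratios were centred on each array's median over non-control probes, averaged by region and fitted with limma 3.58.1 in R 4.3.3 (group only, Benjamini-Hochberg at 0.05). These ratios came from the deposited processed signals. Normexp (offset 50) and uncorrected signals were alternatives only, and both used median, not mean, spot signals. The region fit was tested on simulated data with independent noise for each region and array. The simulation held no shift shared by the regions of an array. It therefore does not show how the fit behaves where levels move with array brightness. Precision was limited by 3 arrays a group. Same-numbered arrays shared a scan; their deviations correlated at 0.145, -0.591 and 0.197 over all regions and at 0.44, -0.651 and 0.0699 over member regions.

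The members and lists were chosen with earlier results of these data known. Named regions were the 6 highest, the 6 lowest, the 5 with the smallest p in each direction, the 3 with the largest SD and those at the edges; named probes were 3 of each kind. Blocks and layouts were defined after the data were seen.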

Additional observations from a re-analysis of the deposited data

How the results depend on the processing

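No setting brought a member region or probe past the adjusted threshold. The count of member regions with an unadjusted p under 0.05 was 0 as reported (0.891% of all regions), 1 with uncorrected signals (0.350%), 1 with the authors' values (0.673%), 1 with the median over probes (1.33%), 3 with the input signal as covariate (3.85%), and 0 to 6 with an array left out (0.541% to 2.54%). The count of member probes was 3 as reported (1.3% of all probes). It was 0 with normexp (0.251%), 0 with bright probes only (0.732%) and 13 with the covariate (3.91%). With an array left out it ranged from 1 without control array 3 (1.05% of all probes) to 14 without control array 1 (2.38%). The paired fit, with the replicate number (the scan) as a block, gave a median difference of -0.035. In that fit 0 member regions (0.509% of all regions) and 4 member probes (1.32% of all probes) had an unadjusted p under 0.05. Fully separated regions were 1 (4.43% of all regions), 2 with normexp (2.66%), and 1 to 7 with an array left out (9.23% to 14.6%); the single one was a higher region with bright probes only and with the median over probes. The mean level of -1.10 became -0.48 with normexp, -0.81 with the authors' values and -0.47 with bright probes only, and the median of -0.94 became -0.43 with normexp and -0.39 with bright probes only. Regions below -1 were 25 (48.1%, against 6.31% of all regions), then 7 with normexp (13.5%, against 1.45%) and 11 with bright probes only (21.6%, against 2.24%). The median of all regions moved from -0.11 to 0.037 and 0.17 under these settings. Regions below -2 were 11 (1.57% of all regions), then 0 with normexp (0.164%) and 3 with uncorrected signals (0.914%). They were 1 with the authors' values (0.810%) and 2 with bright probes only (0.361%). The alpha-defensin median over that of all promoters was 0.14 for the CG count and 0.16 for the observed over expected ratio. The normexp offset was 50, against median input signals of 38.1 to 98.4 scanner units on the arrays. The authors' values had slopes of 0.53 to 0.59 on the ratios used here, by array over all probes. Counts below a fixed level are therefore not on the same scale across settings. The cause of the shifts between settings was not tested.

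Of 150 refits of the 10 regions named by difference, 137 kept their direction. With arrays left out, region 9 ranged from -0.33 to 0.015, region 18 from -0.078 to 0.15, region 20 from -0.075 to 0.093, region 26 from -0.099 to 0.24 and region 36 from -0.030 to 0.23. Region 20 was -0.012 and region 27 0.013 with the median over probes. Region 26 was -0.0087 with normexp and -0.014 with uncorrected signals, and region 36 was -0.0067 with bright probes only. Of 155 refits of the 12 regions named by level, 114 moved by less than 1 SD. With no probe sequences or gene annotation on mm9 used here, CG content and genes of the regions were not analysed, and dim immunoprecipitated spots limit the lowest levels.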
